A study of Mus musculus with 4 samples.

Results

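The liver takes glucose from portal blood after a meal, stores it as glycogen, and makes and releases glucose in fasting. Its transcripts for these steps were followed here through 32 genes, chosen by name as enzymes, transporters and regulators of glycolysis, gluconeogenesis, glycogen turnover and the pentose phosphate route, out of 35522 genes in the deposited tables. All 32 were found by symbol and all 32 passed the filter on low counts. RNA sequencing was done on whole liver from 2 Dph1 KO and 2 Control samples. Both groups were of strain C57BL/6, both received diethylnitrosamine (DEN), a liver carcinogen that hepatocytes convert to a DNA-alkylating agent, and both were taken 1 day (24 hours) after it. No sample without DEN was analysed here. Dph1 encodes an enzyme of the first step of diphthamide synthesis, the modification of a histidine of translation elongation factor 2. Which part of the gene was deleted, in which cells and by what means, is stated in no label, nor is the age of the animals. The 2 libraries of a group carry separate sample names, but no source states that they came from separate animals, so p-values measure the spread between these libraries, which may be technical.

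Glucose enters hepatocytes through a low-affinity transporter and is trapped by phosphorylation. Glycolysis then runs to pyruvate and lactate, and gluconeogenesis returns along the same path with its own enzymes at the irreversible steps. The last step, release of free glucose, takes place in the endoplasmic reticulum and needs both glucose-6-phosphatase and the transporter that brings its substrate in. Glycogen synthase and phosphorylase are switched by phosphorylation, and targeting subunits of protein phosphatase 1 bring that phosphatase to the glycogen particle.

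Of the 32 genes, 1 rose in Dph1 KO livers, Ppp1r3c, a glycogen-targeting subunit of protein phosphatase 1. Another 2 fell, Slc37a4, the transporter that carries glucose-6-phosphate into the endoplasmic reticulum, and Aldoa, the aldolase isozyme that predominates in muscle. The other 29 did not pass the threshold, an adjusted p of 0.05 by edgeR's quasi-likelihood test with Benjamini-Hochberg adjustment over all 13303 genes tested. The 3 called genes are 9.38% of the 32, against 12.3% of all genes tested that were called in either direction. In all genes tested, 4.86% rose and 7.47% fell. The share called among the 32 was therefore near, and not above, that of the whole table. Single libraries weigh heavily in a design of 2 against 2; their numbers below only name them within a group and pair none across groups. The number called changed widely with the library left out, both among the 32 and in the whole table, as given near the end.

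Promoter sequences of these 3 genes are printed below, each at an annotated start site. Those of Pklr and G6pc, the textbook promoters that respond to glucose and to fasting, are printed besides. Reads counted by gene do not show which start was used. The window lies wholly within the listed gene span for Aldoa and Pklr, and partly within it for Slc37a4. Each window is the 250 bases before an annotated start site, from RefSeq on GRCm38.p6, printed 5′ to 3′ on the gene's strand. Capitals mark the motifs searched, on both strands: CACGTG (the E-box), ACGTG (the core bound by hypoxia-inducible factors, which also lies within CACGTG and reads CACGT from the other strand), CACGGG and CCCGTG with 5 bases between them (the carbohydrate response element of Pklr, bound by ChREBP), TGACGT (a cyclic AMP response core), TGTTTTG (a forkhead core) and TATAAA (the TATA box). The windows are chr9:44398104-44398353, plus strand, for Slc37a4, at the site of its 3 nearest to the listed gene start, and chr7:126799255-126799504, minus strand, for Aldoa. The Aldoa site is the middle of its 3 sites by distance from the listed gene start. The others are chr19:36736605-36736854, minus strand, for Ppp1r3c, chr3:89136373-89136622, plus strand, for Pklr at its inner, liver-type start, and chr11:101367466-101367715, plus strand, for G6pc.
Slc37a4: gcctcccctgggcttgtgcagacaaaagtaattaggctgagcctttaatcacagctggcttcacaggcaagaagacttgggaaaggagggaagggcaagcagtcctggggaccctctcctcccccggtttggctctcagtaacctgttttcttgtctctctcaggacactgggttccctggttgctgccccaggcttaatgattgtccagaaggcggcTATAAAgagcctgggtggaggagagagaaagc
Aldoa: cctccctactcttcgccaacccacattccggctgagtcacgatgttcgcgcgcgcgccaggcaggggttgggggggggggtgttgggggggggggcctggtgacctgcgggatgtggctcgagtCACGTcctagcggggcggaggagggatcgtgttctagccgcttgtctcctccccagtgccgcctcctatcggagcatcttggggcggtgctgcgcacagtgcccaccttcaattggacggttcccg
Ppp1r3c: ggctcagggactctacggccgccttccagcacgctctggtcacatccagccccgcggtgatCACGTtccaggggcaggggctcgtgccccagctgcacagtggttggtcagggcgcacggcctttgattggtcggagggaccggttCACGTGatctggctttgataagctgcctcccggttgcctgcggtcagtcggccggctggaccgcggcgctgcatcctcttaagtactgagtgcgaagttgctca
Pklr: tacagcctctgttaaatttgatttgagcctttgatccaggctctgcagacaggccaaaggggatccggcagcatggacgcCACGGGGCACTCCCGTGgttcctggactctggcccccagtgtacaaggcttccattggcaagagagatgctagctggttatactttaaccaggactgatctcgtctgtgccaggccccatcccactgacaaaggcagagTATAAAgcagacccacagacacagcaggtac
G6pc: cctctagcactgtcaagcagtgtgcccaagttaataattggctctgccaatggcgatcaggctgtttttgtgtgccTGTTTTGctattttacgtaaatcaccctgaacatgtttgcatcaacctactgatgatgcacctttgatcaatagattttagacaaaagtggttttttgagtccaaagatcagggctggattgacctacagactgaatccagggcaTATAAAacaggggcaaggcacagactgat

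The window of Ppp1r3c, the gene that rose, holds CACGTG beginning 104 bases upstream of the start and a separate ACGTG core beginning 189 bases upstream. CACGTG is present in 6.02% of all 32851 RefSeq mouse windows of this length. Of 46 windows of 30 of the genes it is present in 5, belonging to Khk, Ldha, Pcx, Pfkfb3 and Ppp1r3c. The window of Aldoa holds the ACGTG core alone, beginning 126 bases upstream. ACGTG is found in 16.6% of all windows and in 13 of the 46 windows, belonging to 11 of the 30 genes. Slc37a4 holds TATAAA, which is found in 12.4% of windows, beginning 32 bases upstream, and Pklr and G6pc hold it 31 and 29 bases upstream. The carbohydrate response element was spelled here as it stands in Pklr, so its match there was fixed in advance. In this strict spelling it was found in 1 window of the 32851, that of Pklr, beginning 170 bases upstream. Looser spellings were not searched, so this count does not show how rare such elements are. G6pc also holds TGTTTTG beginning 174 bases upstream, a core found in 5.56% of windows. TGACGT was found in 6.47% of windows and in 5 of the 46, belonging to Ldha, Pck1, Pfkfb3 and Slc37a4. The Slc37a4 match is not in the window printed but at another of its 3 start sites. These matches describe letters in a window and say nothing about binding.

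The libraries held 20410978 and 21137358 gene reads in Dph1 KO and 19474596 and 20355790 in Control. The 32 genes took 0.776% and 0.936% of the reads in Dph1 KO and 0.881% and 0.921% in Control, and the smallest count among them was 155 reads, for Pfkfb3. Dph1 itself had 17.8 and 31.5 CPM, reads scaled to a common library size, in Dph1 KO and 70.3 and 68.3 CPM in Control, and fell with a log2 fold change of -1.49 (SE 0.26, edgeR adjusted p = 0.0107). Its reads therefore went with the labels, with transcript remaining in both Dph1 KO libraries; 54.2% of its reads were uniquely matched, and a log2 fold change of -1.93 was obtained from those alone. All 8 hepatocyte markers were tested and 0 were called by edgeR. DESeq2 called 3 of them, Fgb and Apob higher (edgeR log2 fold changes of 0.84 and 0.85) and Serpina1a lower (-0.67). Fgb and Apob were the 2 with an unadjusted p under 0.05 by edgeR. Fgb was also called higher with a trend on GC content and length removed, a fit described further on. Fewer cells of a type and less RNA per cell cannot be told apart in whole-liver RNA. Unless stated otherwise, CPM are scaled by the TMM method and fold changes are log2 ratios of Dph1 KO over Control.

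**Figure D1:**
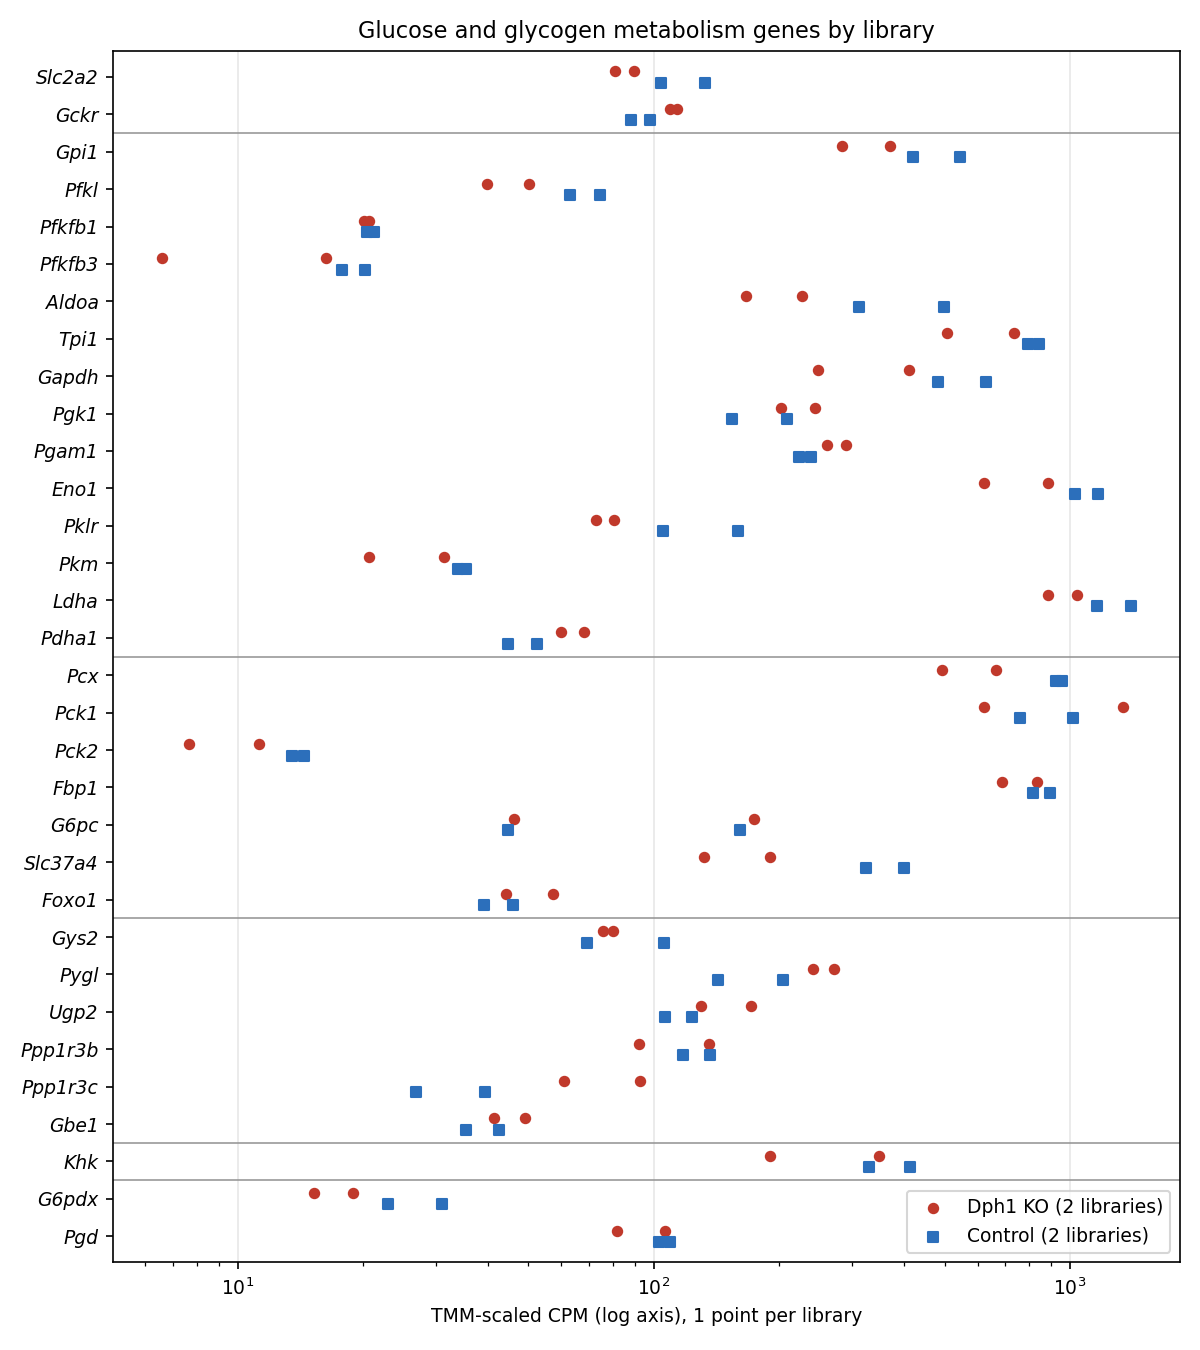
TMM-scaled CPM of the 32 genes on a log axis, 1 point per library, with Dph1 KO as circles and Control as squares; lines divide uptake and hexokinase control, glycolysis, gluconeogenesis and glucose release, glycogen, fructose entry and the pentose phosphate route. Both Dph1 KO points lie left of both Control points in 15 genes and right of them in 6, and the points overlap in 11.

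Levels between genes were set by deposited TPM, which divide by transcript length. Averaged over the 4 libraries, Ldha (lactate dehydrogenase A) at 991 TPM and Fbp1 (fructose-1,6-bisphosphatase) at 953 TPM stood highest, followed by Eno1 at 876, Tpi1 at 758, Pck1 at 594, Gapdh at 590 and Khk at 452 TPM. The middle of the order ran from Pcx at 296 TPM through Aldoa at 268 and Slc37a4 at 202 to Pygl at 133 TPM. Glucose-6-phosphatase (G6pc) averaged 71.6 TPM and glycogen synthase (Gys2) 49.4 TPM. At the low end were Foxo1 at 14.3, G6pdx at 14.1, Pfkfb1 at 14.0, Pck2 at 5.69 and Pfkfb3 at 4.24 TPM. Neighbours in this order such as Ldha and Fbp1, or Pck1 and Gapdh, lie closer together than the libraries of one gene do. In Pck1 alone, the 4 libraries ran from 447 to 869 TPM.

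Both Dph1 KO libraries were below both Control libraries in 15 of the 32 genes (46.9%), against 32.5% of all genes tested. They were above both in 6 genes (18.8%), against 34.9% of all genes. These counts are of TMM-scaled CPM and depend on that scaling. On deposited TPM, the groups overlapped in Slc2a2, Pfkfb3, Tpi1, Pkm and Ldha, which were lower by CPM. On that scale both Dph1 KO libraries were above both Control libraries also in Pfkfb1, Pgk1, Fbp1, Foxo1, Gbe1 and Pgd. The matching shares over all genes were not taken on TPM. At an unadjusted p under 0.05, 8 of the 32 (25%) were lower, against 17.9% of all genes, and 1 (3.12%) was higher, against 16.3%. The median log2 fold change of the 32 was -0.29, beside 0.04 over all genes tested. Without the Dph1 KO library numbered 1 the median of the 32 was -0.09, and without the one numbered 2 it was -0.53. Scaling by library total alone shifted the whole table by 0.26, to medians of -0.04 for the 32 and 0.30 over all genes. With log2(TPM + 1) in limma they were 0.07 for the 32 and 0.23 over all genes.

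In glucose entry, Slc2a2, which encodes the hepatocyte glucose transporter GLUT2, had 80.8 and 89.6 CPM in Dph1 KO and 104 and 133 CPM in Control. Its groups did not overlap, yet the log2 fold change of -0.47 (SE 0.22) was not called (edgeR adjusted p = 0.154). With the trend on GC content and length removed, described further on, it was -0.84 and passed the threshold (adjusted p = 0.0236). Gckr, a regulatory protein of glucose phosphorylation, had 113 and 109 CPM in Dph1 KO and 87.9 and 98.1 CPM in Control. Its log2 fold change of 0.26 was not called and was -0.05 when exon reads alone were counted; reads in introns made up 32.3% of its total.

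Of 14 glycolysis genes, 1 fell in Dph1 KO livers and 13 were not called (7.14% called, against 12.3% of all genes tested). Both Dph1 KO libraries were below both Control libraries in 10 of the 14 (71.4%), against 32.5% of all genes tested. They were above in 2 (14.3%, Pgam1 and Pdha1), against 34.9% of all genes, and overlapping in 2 (Pfkfb1 and Pgk1). On deposited TPM, Pfkfb3, Tpi1, Pkm and Ldha overlapped, and Pfkfb1 and Pgk1 were above. The median log2 fold change was -0.48, and -0.21 with the GC and length trend removed.

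Aldoa, at chromosome 7, 126795234 to 126800447 of GRCm38, minus strand, splits fructose-1,6-bisphosphate and is the form of aldolase used in muscle and many other tissues. It had 166 and 227 CPM in Dph1 KO and 311 and 499 CPM in Control. All Dph1 KO values were below all Control values, at 197 ± 43.0 CPM against 405 ± 133 CPM (SD, n = 2 each). The log2 fold change was -1.04 (SE 0.30, edgeR adjusted p = 0.0458), which is 0.485 of the Control level. The call ended with the GC and length trend removed (-0.52, adjusted p = 0.132), without the Control library numbered 2 (-0.66, adjusted p = 0.420) and without the Dph1 KO library numbered 1 (-0.81, adjusted p = 0.063). The 5 skeletal muscle markers summed to 0.0424 and 0 CPM in Dph1 KO and to 0.0544 and 0.111 CPM in Control, with 3 of the 5 at 0 in every library.

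Pklr, the pyruvate kinase of liver and red cells, had 72.6 and 80.4 CPM in Dph1 KO and 105 and 159 CPM in Control. The log2 fold change was -0.79 (SE 0.24) with an edgeR adjusted p of 0.0568. DESeq2 called it, with an adjusted p of 0.0168, and with the GC and length trend removed it was -0.51 (adjusted p = 0.104). Pfkl, the liver subunit of phosphofructokinase, had 39.8 and 50.2 CPM in Dph1 KO and 63.1 and 74.1 CPM in Control, also without overlap (-0.61, SE 0.21, edgeR adjusted p = 0.0783). With the GC and length trend removed it was -0.22 (adjusted p = 0.347). Pkm, the pyruvate kinase of most other tissues, was lower in both Dph1 KO libraries, but its log2 fold change of -0.41 became 0.07 with the GC and length trend removed.

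Control of phosphofructokinase runs through fructose-2,6-bisphosphate, made and broken down by bifunctional enzymes. Pfkfb1, the liver form, had 20.7 and 20.1 CPM in Dph1 KO and 20.5 and 21.2 CPM in Control, with a log2 fold change of -0.03 (SE 0.19). This was the smallest fold change of the 32, although 33.2% of its reads lay in introns and it became 0.23 when scaled by library total. Pfkfb3, an inducible form, had 6.57 and 16.3 CPM in Dph1 KO and 20.2 and 17.8 CPM in Control. One Dph1 KO library lay far below the other 3, and the log2 fold change of -0.74 (SE 0.34) was not called.

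The middle and lower steps were mixed and partly uncertain. Gpi1, the glucose-6-phosphate isomerase, and Tpi1, the triose-phosphate isomerase, had log2 fold changes of -0.56 (SE 0.27) and -0.40 (SE 0.28), without overlap of the groups and without a call; with the GC and length trend removed these were -0.44 for Gpi1 and -0.10 for Tpi1. Gapdh had 248 and 409.7 CPM in Dph1 KO and 483 and 629 CPM in Control (-0.76, SE 0.30, edgeR adjusted p = 0.109). Only 1.76% of its reads were uniquely matched, and those gave -0.28, while all its reads gave -0.49 with the GC and length trend removed. Pgam1, phosphoglycerate mutase, had 262 and 290.5 CPM in Dph1 KO and 224 and 239 CPM in Control, and Pgk1, phosphoglycerate kinase, had 244 and 203 CPM in Dph1 KO and 155 and 209 CPM in Control. Their uniquely matched reads were 3.18% and 6.17% of the total and gave log2 fold changes of 0.43 for Pgam1 and -0.02 for Pgk1. Eno1, the enolase, with 28.8% unique reads, had -0.55 by all reads and -0.56 by unique reads, but 0.00 with the GC and length trend removed. These 4 genes have many near-identical copies in the genome, and no header or label says how such reads were divided, so their values are uncertain.

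Ldha, which interconverts pyruvate and lactate, had 887 and 1043 CPM in Dph1 KO and 1405 and 1162 CPM in Control, without overlap and without a call (-0.41, SE 0.28, and -0.26 with the GC and length trend removed). Pdha1, the catalytic subunit of pyruvate dehydrogenase that sends pyruvate to the citric acid cycle, had 67.8 and 59.7 CPM in Dph1 KO and 44.7 and 52.5 CPM in Control. Its log2 fold change of 0.39 (SE 0.20) was likewise not called and was 0.14 with the GC and length trend removed.

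Gluconeogenesis and glucose release gave 1 call in 7 genes (14.3%, against 12.3% of all genes tested). Both Dph1 KO libraries were below both Control libraries in Slc37a4, Pcx and Pck2 (42.9%), against 32.5% of all genes tested. They were above in 0 genes, against 34.9% of all genes, and overlapping in Pck1, Fbp1, G6pc and Foxo1. On deposited TPM, Fbp1 and Foxo1 were above. The median log2 fold change of the 7 was -0.17.

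Slc37a4, at chromosome 9, 44398176 to 44402966 of GRCm38, plus strand, encodes the glucose-6-phosphate translocase, whose loss in humans causes a glycogen storage disease. It had 132 and 190.5 CPM in Dph1 KO and 324 and 400.2 CPM in Control. The higher Dph1 KO library was well below the lower Control library, and the means were 161 ± 41.3 CPM in Dph1 KO and 362 ± 54.2 CPM in Control (SD, n = 2 each). The log2 fold change was -1.17 (SE 0.27, edgeR adjusted p = 0.0260), or 0.446 of the Control level. With the GC and length trend removed it was -0.77 and passed the threshold (adjusted p = 0.0220). Without the Control library numbered 2 the call ended, with an adjusted p of 0.174.

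Its partner in glucose release was not called and varied widely between libraries, and whether the fold changes of these genes differ was not tested. G6pc, the catalytic subunit of glucose-6-phosphatase, had 46.2 and 174 CPM in Dph1 KO and 44.5 and 161 CPM in Control. Each group held 1 low and 1 high library, 3.77-fold apart in Dph1 KO and 3.61-fold apart in Control, so the spread within a genotype far exceeded the log2 fold change of 0.10 (SE 0.59). Without the Control library numbered 1 the log2 fold change was -0.55, and without the Dph1 KO library numbered 2 it was -1.13. Without the Control library numbered 2 it was 1.30 and was called (edgeR adjusted p = 0.043). On the TPM scale, G6pc stood at 0.288 and 0.809 of Slc37a4 in Dph1 KO and at 0.120 and 0.336 of it in Control.

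Pck1, the cytosolic phosphoenolpyruvate carboxykinase and a standard fasting-induced gene, had 623 and 1341 CPM in Dph1 KO and 759 and 1015 CPM in Control. The Dph1 KO libraries lay on either side of both Control libraries, and the log2 fold change of 0.15 (SE 0.36) was not called. Pck2, the mitochondrial form, was much lower, with 7.63 and 11.3 CPM in Dph1 KO and 13.5 and 14.4 CPM in Control (-0.56, SE 0.24, edgeR adjusted p = 0.121). On the TPM scale Pck1 exceeded Pck2 by 105 and 150 times in Dph1 KO and by 72.7 and 92.2 times in Control.

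Pcx, pyruvate carboxylase, which makes oxaloacetate from pyruvate, had 493 and 666 CPM in Dph1 KO and 956 and 926 CPM in Control. The groups did not overlap, at a log2 fold change of -0.70 (SE 0.27). It was not called by edgeR (adjusted p = 0.104) and was called by DESeq2 (adjusted p = 0.0189), and it was -0.31 with the GC and length trend removed (adjusted p = 0.267). Fbp1 overlapped between the groups, with 686 and 832 CPM in Dph1 KO and 896 and 816 CPM in Control. Foxo1, a transcription factor that insulin signalling keeps out of the nucleus, also overlapped, with 44.2 and 57.4 CPM in Dph1 KO and 45.9 and 39.1 CPM in Control.

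**Figure D2:**
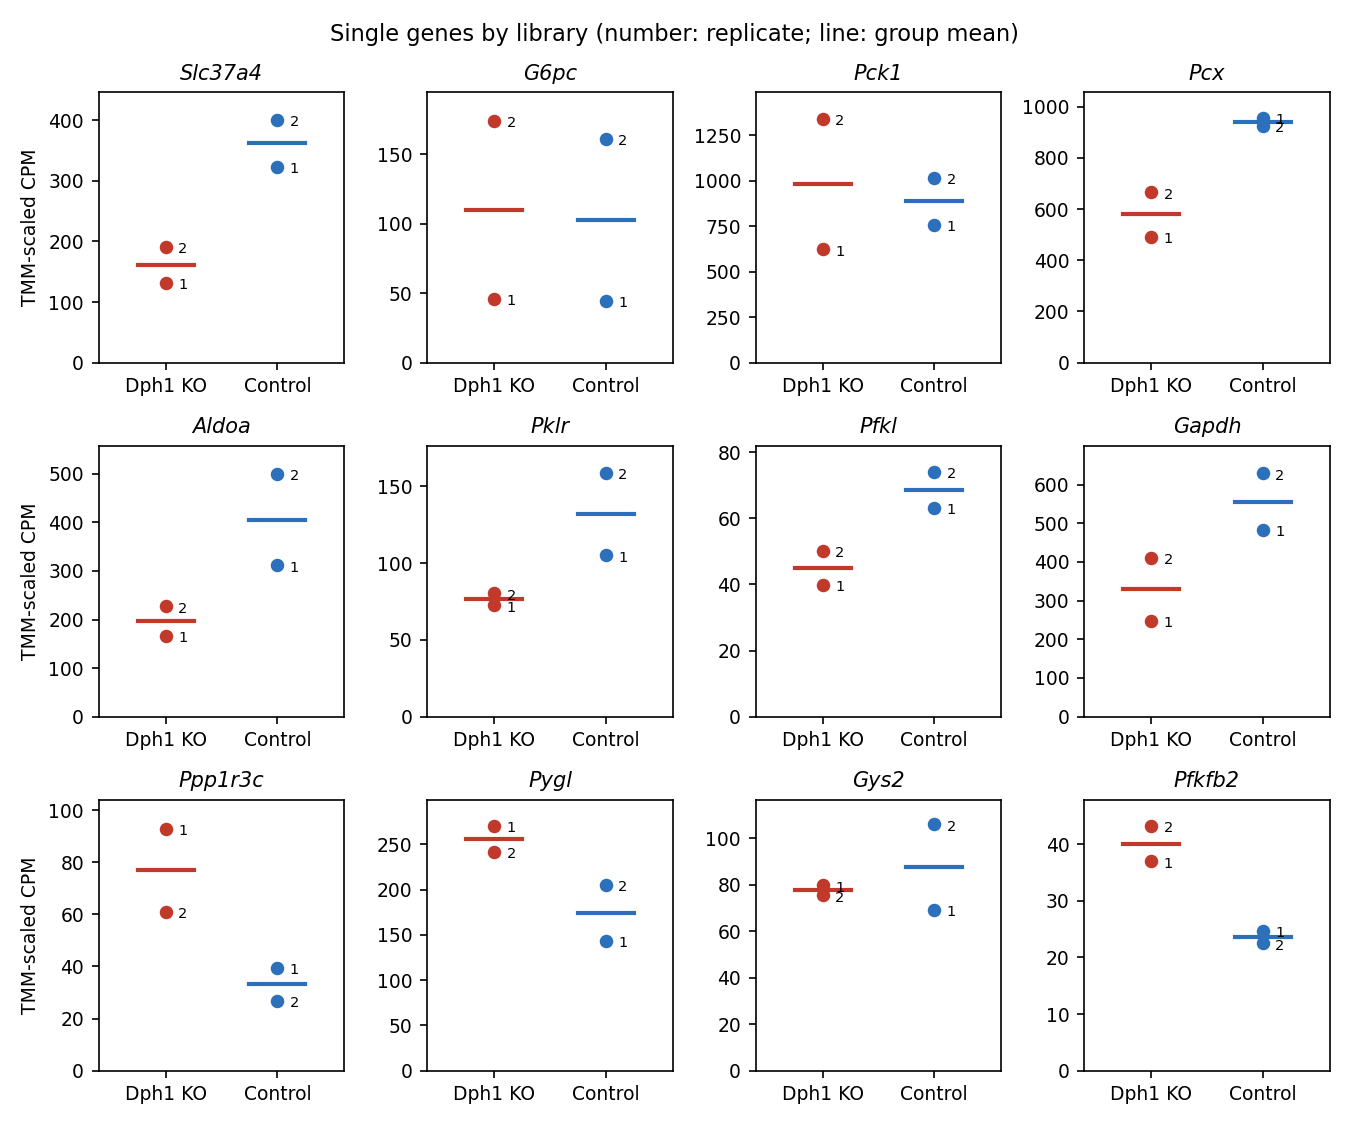
TMM-scaled CPM of 12 genes by library, Dph1 KO left and Control right, with the replicate number beside each point and a line at the group mean; y axes start at 0. Slc37a4 shows 132 and 190.5 CPM in Dph1 KO and 324 and 400.2 CPM in Control, Ppp1r3c 92.9 and 60.9 CPM in Dph1 KO and 39.3 and 26.9 CPM in Control, and G6pc is split within each group.

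Glycogen genes were the one group among the 32 in which a gene rose, with 16.7% of them called, against 12.3% of all genes tested. Of 6 genes, both Dph1 KO libraries were above both Control libraries in Ppp1r3c, Pygl and Ugp2 (50.0%), against 34.9% of all genes tested. They were below in 0 genes, against 32.5% of all genes, and overlapping in Gys2, Ppp1r3b and Gbe1. On deposited TPM, Gbe1 was above as well. The median log2 fold change was 0.30, but -0.14 with the GC and length trend removed, the median GC content of these 6 transcripts being 45.7%.

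Ppp1r3c, at chromosome 19, 36731731 to 36736604 of GRCm38, minus strand, encodes the targeting subunit known as PTG, which brings protein phosphatase 1 to glycogen and favours glycogen synthesis when raised in mouse liver. It had 92.9 and 60.9 CPM in Dph1 KO and 39.3 and 26.9 CPM in Control. The lower Dph1 KO library exceeded the higher Control library, with means of 76.9 ± 22.6 CPM in Dph1 KO and 33.1 ± 8.81 CPM in Control (SD, n = 2 each). It rose 2.32-fold, a log2 fold change of 1.22 (SE 0.27, edgeR adjusted p = 0.0218). With the GC and length trend removed it was 0.99 and passed the threshold (adjusted p = 0.0202), and without the Control library numbered 2 the call ended (0.97, adjusted p = 0.151). Ppp1r3b, the targeting subunit that predominates in liver, had 92.1 and 136 CPM in Dph1 KO and 137 and 117 CPM in Control, an overlap with a log2 fold change of -0.16 (SE 0.24).

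Pygl, the liver glycogen phosphorylase that releases glucose-1-phosphate, had 271 and 242 CPM in Dph1 KO and 143 and 205 CPM in Control. Its groups did not overlap and its log2 fold change of 0.56 (SE 0.25) was not called (edgeR adjusted p = 0.148), and was 0.29 with the GC and length trend removed. Gys2, the liver glycogen synthase, had 79.6 and 75.3 CPM in Dph1 KO and 69.2 and 106 CPM in Control, with both Dph1 KO libraries between the Control ones. Ugp2, which makes UDP-glucose, had 172 and 130.2 CPM in Dph1 KO and 106 and 123 CPM in Control (0.39, SE 0.23), and Gbe1, the branching enzyme, had 49.0 and 41.2 CPM in Dph1 KO and 35.4 and 42.4 CPM in Control (0.22, SE 0.20). With the GC and length trend removed these became -0.10 for Ugp2 and -0.17 for Gbe1. Scaled by library total alone, Pygl (0.83), Ugp2 (0.67) and Pdha1 (0.66) were called higher beside Ppp1r3c, with the whole table shifted by 0.26.

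Khk, ketohexokinase, through which fructose enters the liver's triose pool, had 189.8 and 347 CPM in Dph1 KO and 329.9 and 414 CPM in Control. The groups overlapped, and the log2 fold change of -0.47 (SE 0.31) became 0.21 with the GC and length trend removed, Khk having the highest GC content of the 32, at 59.4%. In the pentose phosphate route, G6pdx, the glucose-6-phosphate dehydrogenase that makes NADPH at the first step, had 15.3 and 18.9 CPM in Dph1 KO and 23.0 and 30.9 CPM in Control, without overlap (-0.66, SE 0.22, edgeR adjusted p = 0.0692). Pgd, 6-phosphogluconate dehydrogenase, the next NADPH-making enzyme, had 81.7 and 107 CPM in Dph1 KO and 109 and 103 CPM in Control, an overlap (-0.17, SE 0.22).

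**Figure D3:**
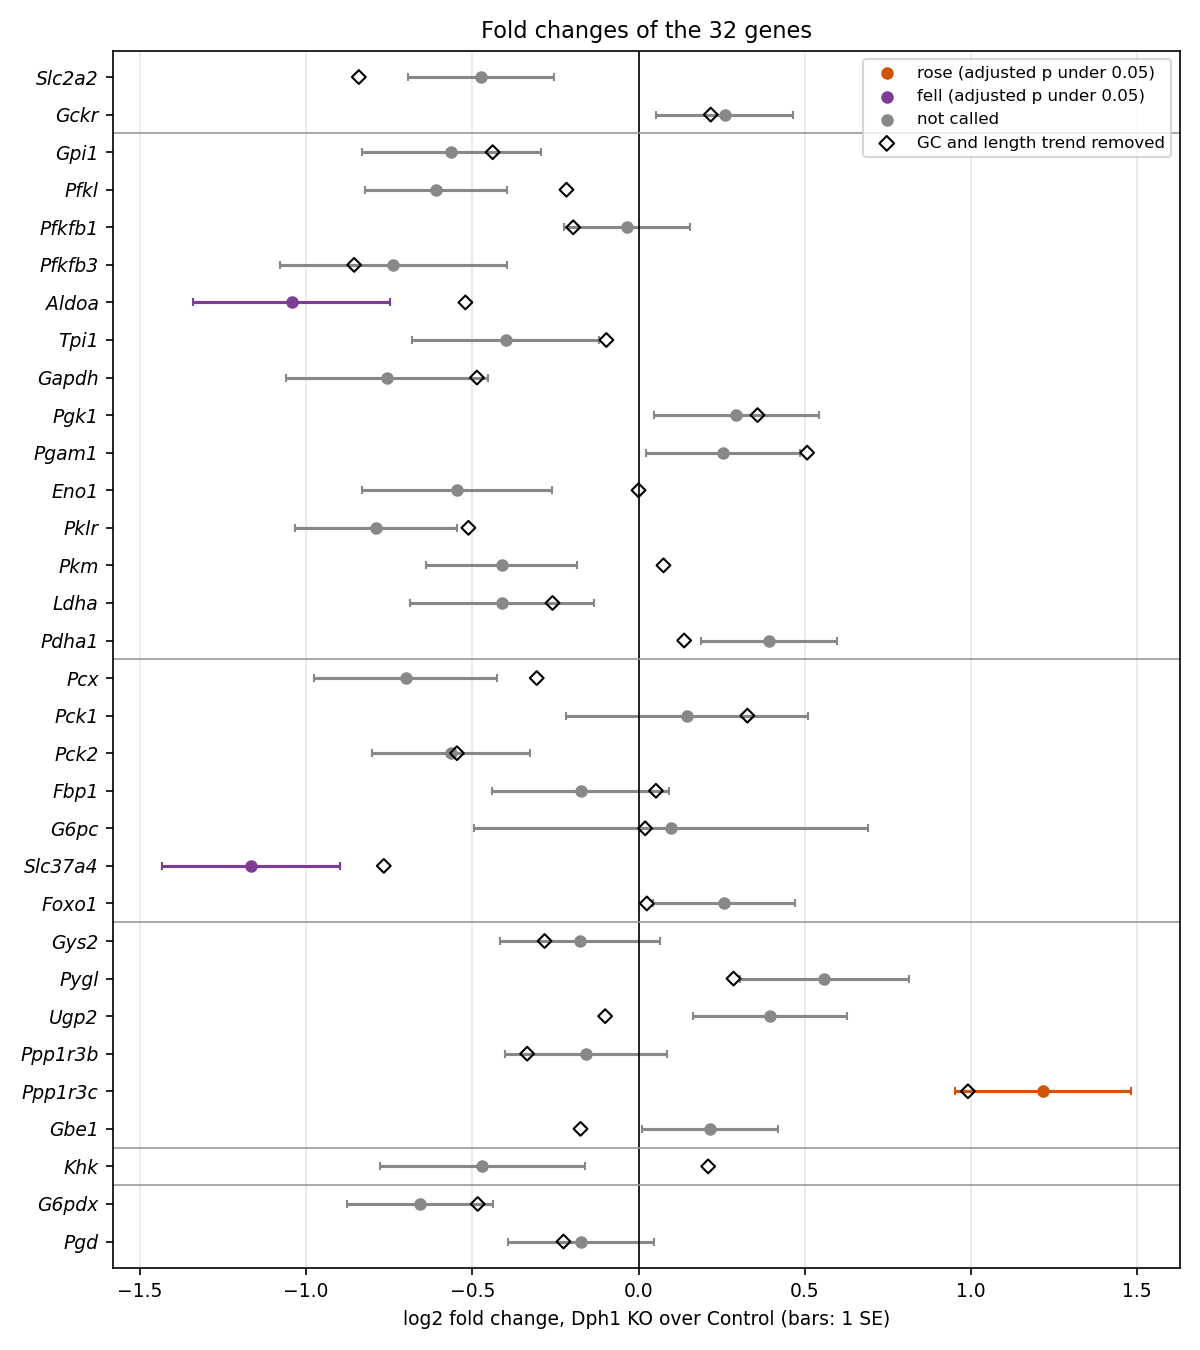
Log2 fold changes of the 32 genes, Dph1 KO over Control, as circles with bars of 1 SE, and the same with the GC and length trend removed as open diamonds. Slc37a4 (-1.17), Aldoa (-1.04) and Ppp1r3c (1.22) are coloured as called, and most diamonds of glycolytic genes lie nearer to 0 than their circles.

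Fold change went with the base composition of the transcripts, in these genes and in the whole table. Across the 32 genes, GC content of the longest annotated transcript and log2 fold change had a Spearman rho of -0.65, and across 12501 tested protein-coding genes -0.62; both describe genes that share the same 4 libraries, and neither is a test. The 16 genes of lower GC content, 39.1% to 51.0%, had a median log2 fold change of 0.16, with 9 higher and 7 lower in Dph1 KO. The 16 of higher GC content, 51.5% to 59.4%, had a median of -0.55, with 2 higher and 14 lower. Removing from each library a smooth trend on GC content and length brought these medians to -0.14 and -0.24 and the rho of the 32 genes to -0.11. In that fit 10.9% of 12517 genes were called, and of the 32, Ppp1r3c rose and Slc37a4 and Slc2a2 fell. The median of the 32 was then -0.19, beside 0.00 over all genes. What part base composition has in the fold changes was not tested beyond this.

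**Figure D4:**
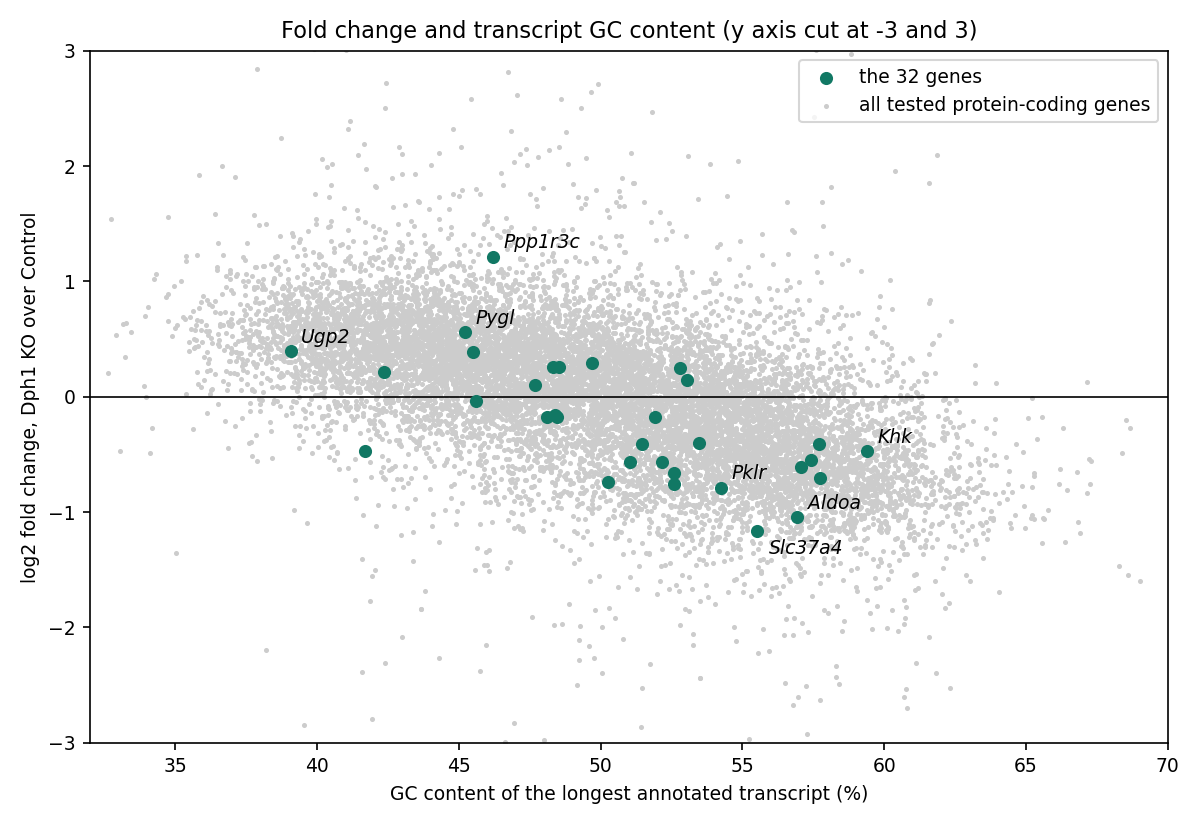
Log2 fold change, Dph1 KO over Control, against GC content in percent for the 32 genes (large points) and all tested protein-coding genes (small points), with the y axis truncated as marked in the title. Both sets slope downward, with Spearman rho of -0.65 and -0.62.

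By DESeq2, 15.9% of the 11997 genes given an adjusted p were called, and of the 32 genes 1 rose and 5 fell. The 5 were Slc37a4, Aldoa, Pklr, Pcx and Gapdh, the last with the uncertainty of its reads given above. Ppp1r3c was the one that rose.

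Other genes of glucose metabolism were drawn from 5 lists of 102 genes, of which 95 were tested. Of these, 4 rose, 8 fell and 83 were not called, so 12.6% were called, close to the 12.3% of all genes. Their median log2 fold change was 0.02, and with the GC and length trend removed 4 rose and 2 fell. The number called among the 95 changed widely with the library left out, as did that in the whole table, both given near the end. Of the 12 genes named next, Akr1b3 was called whichever library was left out.

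Among hexokinases and glycolytic isozymes, 2 of 16 tested rose and 1 fell (18.8% called, against 12.3% of all genes tested). Ldhb, the lactate dehydrogenase subunit of heart, had 7.42 and 6.49 CPM in Dph1 KO and 2.34 and 2.95 CPM in Control (1.40, SE 0.27, edgeR adjusted p = 0.0158). It was called also with the GC and length trend removed, and on the TPM scale Ldha exceeded it by 87.8 and 111 times in Dph1 KO and by 466 and 273 times in Control. Pfkfb2, another of the bifunctional enzymes, had 37.0 and 43.2 CPM in Dph1 KO and 24.7 and 22.5 CPM in Control (0.76, SE 0.20, edgeR adjusted p = 0.0356), a call that ended at 0.26 with the GC and length trend removed. Aldoc, the aldolase of brain, had 4.96 and 4.85 CPM in Dph1 KO and 8.05 and 10.3 CPM in Control and fell (-0.90, edgeR adjusted p = 0.0393), but was not called with the GC and length trend removed.

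Of 16 tested genes of gluconeogenesis and pyruvate handling, 2 fell and 0 rose (12.5% called, against 12.3% of all genes tested). Another 3 were higher at an unadjusted p under 0.05, and 1 was called higher by DESeq2. G6pc3, the widely expressed glucose-6-phosphatase, had 7.93 and 11.1 CPM in Dph1 KO and 16.5 and 19.1 CPM in Control (-0.91, SE 0.23, edgeR adjusted p = 0.0338). Pdk2, a kinase that inactivates pyruvate dehydrogenase, had 98.7 and 134 CPM in Dph1 KO and 183 and 285 CPM in Control (-1.01, SE 0.28, edgeR adjusted p = 0.0429). Neither was called with the GC and length trend removed, at -0.31 for G6pc3 and -0.52 for Pdk2.

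Of 21 tested glycogen genes, 1 rose and 1 fell (9.52% called, against 12.3% of all genes tested). Phkb, the beta subunit of phosphorylase kinase, had 14.7 and 10.9 CPM in Dph1 KO and 7.12 and 7.67 CPM in Control (0.79, edgeR adjusted p = 0.0487). Gaa, the lysosomal enzyme that degrades glycogen, had 124 and 161 CPM in Dph1 KO and 257 and 275 CPM in Control (-0.90, edgeR adjusted p = 0.0395). Both calls ended with the GC and length trend removed.

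Of 13 genes of the pentose phosphate, fructose and galactose routes, 3 fell and 0 rose (23.1% called, against 12.3% of all genes tested). Another 1 was higher at an unadjusted p under 0.05, and 0 were called higher by DESeq2. Akr1b3, aldose reductase, which makes sorbitol from glucose, had 19.9 and 20.4 CPM in Dph1 KO and 61.1 and 97.2 CPM in Control. The groups lay far apart, at a log2 fold change of -1.97 (SE 0.25, edgeR adjusted p = 0.0016), and it was -1.94 with the GC and length trend removed. Uniquely matched reads, 15.9% of its total, gave -1.03 (adjusted p = 0.0256), so its size is uncertain. Galk1, galactokinase, had 64.5 and 162 CPM in Dph1 KO and 265 and 316 CPM in Control (-1.36), and Pgls, the lactonase between the enzymes of G6pdx and Pgd, had 148 and 268 CPM in Dph1 KO and 385 and 518 CPM in Control (-1.12). Their edgeR adjusted p-values were 0.0408 for Galk1 and 0.0458 for Pgls, and neither was called with the GC and length trend removed.

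Of 29 regulators, 1 rose and 1 fell (6.90% called, against 12.3% of all genes tested). Irs1, an adaptor of the insulin receptor, had 41.3 and 28.3 CPM in Dph1 KO and 19.4 and 15.8 CPM in Control (0.98, SE 0.23, edgeR adjusted p = 0.0275), and was called also with the GC and length trend removed (adjusted p = 0.0325). Akt1, a kinase of insulin signalling, had 48.1 and 62.9 CPM in Dph1 KO and 92.4 and 114 CPM in Control (-0.89, SE 0.23, edgeR adjusted p = 0.0345), and was not called with it removed (-0.29).

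Macrophage markers summed to 189 and 310 CPM in Dph1 KO and to 299 and 312 CPM in Control, with 1 of 8 called (Cd68, lower). Endothelial markers summed to 299 and 342 CPM in Dph1 KO and to 413 and 487 CPM in Control, with 1 of 8 called (Eng, lower). Stellate cell and fibroblast markers summed to 156 and 151 CPM in Dph1 KO and to 177 and 195 CPM in Control, with 3 of 8 called (Col1a1, Des and Acta2, lower). Those of bile duct summed to 42.0 and 39.2 CPM in Dph1 KO and to 62.7 and 56.3 CPM in Control, with 0 of 6 called by edgeR, 3 at an unadjusted p under 0.05 and 1 called by DESeq2. Of 4 tested lymphocyte markers 1 was called (Cd79a, lower), with sums of 8.43 and 8.87 CPM in Dph1 KO and 7.995 and 8.95 CPM in Control. Of tested markers, 12.5% were called in the macrophage and in the endothelial list, 37.5% in the stellate and 25% in the lymphocyte list. Over all genes tested, 12.3% were called. With the GC and length trend removed, Cd68 and Acta2 stayed called, and Eng, Col1a1, Des and Cd79a did not. The endothelial marker Cdh5, not called before, then passed the threshold as lower (-0.51, adjusted p = 0.0490). Within these lists the markers differed. Eng alone had 107 and 152 CPM in Dph1 KO and 211 and 278 CPM in Control, while the stellate marker Lrat, chosen after its values were seen, had 18.1 and 10.8 CPM in Dph1 KO and 7.02 and 9.18 CPM in Control and was not called (0.84, SE 0.27). On the TPM scale the stellate sums overlapped, at 107 and 78.6 in Dph1 KO and 83.8 and 82.0 in Control, as did those of bile duct, at 39.2 and 31.2 in Dph1 KO and 46.0 and 34.8 in Control. Endothelial sums on that scale were 184 and 171 in Dph1 KO and 184 and 194 in Control. The part of these cells in the values of Aldoa and Pkm, isozymes also expressed outside hepatocytes, was not tested.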

How the data were processed

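RNA from frozen livers was made into stranded mRNA libraries, per the labels' protocols, and mapped to GRCm38 (mm10), the build named in the submitters' processing notes. Neither aligner, counter nor strand setting is named in them. Per the file headers, the deposited values are read counts of each gene (total and uniquely matched, over genes, exons and introns), RPKM, TPM and the fraction of reads in several classes. The deposited RPKM and fraction columns were not used. Total gene reads were tested with edgeR 4.0.16 in R 4.3.3 (filterByExpr, TMM, quasi-likelihood test, with no term besides genotype). Benjamini-Hochberg adjustment ran over 13303 genes at a threshold of 0.05, and "rose", "fell" and "called" mean past it. The SE is the log2 fold change divided by the square root of F. The deposited TPM set levels between genes and entered limma 3.58.1 as log2(TPM + 1) or log2(TPM + 0.1) as alternatives. The GC and length fit removes a smooth trend (mgcv 1.9.3, basis size 6) from each library of protein-coding genes, with GENCODE transcripts. DESeq2 1.42.0 was an alternative. The edgeR, GC and length, and DESeq2 fits were also run on simulated counts. Those counts held no trend on GC content or length, so removal of such a trend was not tested by them.

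TMM factors were 1.16 and 1.04 in Dph1 KO and 0.945 and 0.884 in Control, and between 89.3% and 90.2% of gene reads were uniquely matched. The biological coefficient of variation was 18.5%. Libraries of one genotype differed beyond sampling noise (chi-square per degree of freedom of 77.3 in Dph1 KO and 29.7 in Control), so neither pair looked like 1 library deposited under different names. This does not show that they came from separate animals. An exact permutation test of 2 against 2 cannot go below a two-sided p of 0.333, so none is given.

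The 32 genes and all lists were chosen with earlier results of these data known. All 32 could be named. Of the other lists, the called genes with the lowest p were named, up to 4 a list. Dph1 and called cell markers were named besides, with some markers called only by DESeq2 or with the GC and length trend removed. Promoter windows were matched by symbol, for 30 of the 32 genes; Gys2 and Ppp1r3b have none. Of the 10 lists of cell markers, erythroid, neutrophil and pancreas markers had 0 calls by edgeR and by DESeq2, with 0 at an unadjusted p under 0.05. Few of them were tested: 2 of 4 matched erythroid, 2 of 6 neutrophil and 1 of 5 pancreas markers. That pancreas marker, Cela1, was called higher with the GC and length trend removed (0.90, adjusted p = 0.0194).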

Additional observations from a re-analysis of the deposited data

How the results depend on the processing

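Against 1640 genes called, 3 of the 32 and 12 of the other pathway genes, limma-trend on log2(TPM + 1) called 3, 0 and 0, and on log2(TPM + 0.1) 23, 0 and 0, with 7 of the 32 at an unadjusted p under 0.05 in each. Library totals alone gave 3423, 6 and 25 calls, of which 77.0% over all genes were higher, against 39.4% with TMM, and DESeq2 gave 6 of the 32. The GC and length fit called 6 other pathway genes. With no filter on low counts 2233, 4 and 18 were called. Leaving out 1 library gave 528 to 5405 genes, 1 to 18 of the 32 and 2 to 36 others, the highest without the Dph1 KO library numbered 2 and the lowest without the Control library numbered 2; the single library of a group is then assumed to vary like the other pair. Of 585 log2 fold changes (45 named genes, 13 alternatives), 460 kept direction and side of the threshold, 24 were newly called, 71 lost a call and 30 changed sign, all of them uncalled. Log2(TPM + 1) and log2(TPM + 0.1) gave 0.27 and 0.29 for Pfkfb1, 0.20 and 0.20 for Fbp1, 0.15 and 0.15 for Gys2, 0.19 and 0.20 for Ppp1r3b, and 0.19 and 0.20 for Pgd, where the median of all genes was 0.23 and 0.32. Library totals gave 0.23 for Pfkfb1, 0.078 for Fbp1, 0.097 for Gys2, 0.085 for Ppp1r3b and 0.076 for Pgd, all below the median of all genes. The GC and length fit gave 0.075 for Pkm, 0.052 for Fbp1, -0.10 for Ugp2, -0.17 for Gbe1 and 0.21 for Khk. Exon reads gave -0.047 for Gckr, and unique reads -0.020 for Pgk1. Leaving out 1 library spanned -0.066 to 0.0026 for Pfkfb1, -0.49 to 0.62 for Pck1, -1.13 to 1.30 for G6pc, -0.46 to 0.16 for Gys2, -0.45 to 0.12 for Ppp1r3b and -0.36 to 0.030 for Pgd. The cause was not tested. No paired analysis was possible because the labels give the groups no shared replicate numbers: libraries were numbered here in deposit order, which pairs none.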

Other observations

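The split of G6pc within each genotype was shared by Igfbp1, a fasting-induced binding protein of insulin-like growth factors, chosen after its values were seen. Igfbp1 had 30.3 and 88.6 CPM in Dph1 KO and 35.5 and 82.4 CPM in Control, with a log2 fold change of 0.01 (SE 0.46, edgeR adjusted p = 0.989). Txnip, an inhibitor of glucose uptake also chosen after its values were seen, had 53.7 and 51.4 CPM in Dph1 KO and 64.3 and 161 CPM in Control, with 1 Control library far above the other 3 libraries. Its log2 fold change was -1.10 (SE 0.35, edgeR adjusted p = 0.061). No label gives the feeding state or the hour of collection.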
